A study of Mus musculus with 6 samples.

Results

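The 7 genes Apol6, Apol9a, Apol9b, Ubd, Calhm6, Slc17a6 and Fmod were taken by symbol from the 23122 genes of a count table of CT26 tumors, and all 7 were found. They had been picked because of large differences between TP-18 and vehicle tumors in these same libraries, with the Apol9 paralogs of Apol6 added, so their differences are given below as a description, with no test. The data go against the description of a large difference for Apol9a and Apol9b: their log2 changes ranked 1470 and 1119 among the 14189 genes tested. The other 5 ranked 8 (Fmod), 13 (Apol6), 16 (Slc17a6), 17 (Ubd) and 19 (Calhm6).

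Bulk RNA sequencing was done on 3 tumors from mice given TP-18, a dual EP2/EP4 antagonist per the series title, and on 3 tumors from mice given vehicle. TP-18 was dosed by mouth once a day at 50 mg/kg for 3 weeks. All 6 tumors grew under the skin of female BALB/c mice aged 6 to 8 weeks from 500000 injected cells of CT26, a colorectal carcinoma line of the same strain, and mice were randomized once tumors had reached 100 to 200 mm3. The labels do not say that each library came from its own mouse.

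EP2 and EP4 are receptors for prostaglandin E2 that raise cyclic AMP, and in tumors they are best known for restraining T cells, NK cells and dendritic cells. Interferons act on tumor, stromal and immune cells through STAT proteins and switch on genes whose promoters carry an interferon-stimulated response element (ISRE) or a gamma-activated site (GAS). Apol9a, Apol9b, Ubd and Calhm6 are known from mouse cells as genes that interferons induce, whereas Slc17a6 is best known from excitatory neurons and Fmod from tendon and other collagen-rich tissue.

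Libraries held 34813482 to 36489081 counts. Genes with any count numbered 19278 to 19617 in TP-18 libraries, against 18429 to 18769 in vehicle libraries. With edgeR's quasi-likelihood test, 1753 of 14189 genes passed a Benjamini-Hochberg adjusted p under 0.05, 1006 of them above and 747 of them below vehicle in TP-18 tumors, and the median log2 change of all tested genes was -0.01. Higher genes made up 57.4% of these calls, against 86.3% when log2(FPKM + 1) was tested with limma and no TMM scaling. The label of a colorectal carcinoma line was set against epithelial genes. Krt18 had 156 to 416 counts per library, Cdh1 37 to 195, Epcam at most 24 and Krt8 at most 23. In bulk tumors, fewer cells of a type and less RNA per cell cannot be told apart, and this holds for every difference below.

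The sequences just upstream of the genes are shown because 4 of the genes are known interferon targets and because the Apol9 pair shares its upstream sequence. RefSeq promoter windows of GRCm38.p6 were matched for 6 of the 7 genes. Each line gives the 150 bases before the transcription start, 5′ to 3′ on the strand of the gene, from the most upstream start where the listing has 2. Capitals mark a match to one of the motifs searched.
Apol9a, chr15:77411081-77411230, minus strand: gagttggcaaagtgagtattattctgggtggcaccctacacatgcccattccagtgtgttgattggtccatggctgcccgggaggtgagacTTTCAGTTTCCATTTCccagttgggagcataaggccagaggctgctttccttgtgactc
Apol9b, chr15:77728922-77729071, plus strand: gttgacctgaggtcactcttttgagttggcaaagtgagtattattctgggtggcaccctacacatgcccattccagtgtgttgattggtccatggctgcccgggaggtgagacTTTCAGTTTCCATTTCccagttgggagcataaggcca
Calhm6, chr10:34127973-34128122, minus strand: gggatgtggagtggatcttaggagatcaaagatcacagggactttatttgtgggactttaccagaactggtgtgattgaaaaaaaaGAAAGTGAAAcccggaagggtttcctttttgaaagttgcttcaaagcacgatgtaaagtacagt
Ubd, chr17:37193742-37193891, plus strand: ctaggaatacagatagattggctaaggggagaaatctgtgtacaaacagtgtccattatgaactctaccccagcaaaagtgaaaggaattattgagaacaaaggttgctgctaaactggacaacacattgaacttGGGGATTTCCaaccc
Slc17a6, chr7:51621680-51621829, plus strand: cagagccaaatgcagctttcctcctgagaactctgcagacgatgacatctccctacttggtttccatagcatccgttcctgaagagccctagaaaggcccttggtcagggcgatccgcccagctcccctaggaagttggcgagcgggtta
Fmod, chr1:134037104-134037253, plus strand: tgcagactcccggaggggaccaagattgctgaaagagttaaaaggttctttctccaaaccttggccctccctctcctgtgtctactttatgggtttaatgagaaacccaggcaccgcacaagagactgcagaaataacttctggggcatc

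Motifs were searched on both strands of the 250 bases before each start. The ISRE core, GAAA followed by a pair of any bases and again GAAA, was found in Apol9a, Apol9b and Calhm6, and in 3.05% of 27025 windows of that length genome-wide. In Apol9a it lay on the opposite strand at 59 to 50 and at 53 to 44 bases before the start, and these matches overlap each other. Apol9b held the same pair of overlapping matches at 37 to 28 and 31 to 22 bases before its start. In Calhm6 the match GAAAGTGAAA lay at 64 to 55 bases before the start, on the strand of the gene. The kappaB site was found in Ubd as GGGGATTTCC, 15 to 6 bases before the start, and in 7.03% of windows. The GAS letters TTCNNNGAA, present in 7.14% of windows, and the cyclic AMP response element TGACGTCA, present in 1.6%, were found in none of the 6 genes. Slc17a6 and Fmod held none of the motifs in these windows. A match describes letters and does not show that a factor binds.

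Per length of transcript, the genes covered a wide range of levels, which the plot of FPKM in every tumor shows. Mean FPKM in TP-18 tumors was 41.8 ± 12.4 for Apol9a, 35.1 ± 10.3 for Apol9b, 26.7 ± 12.1 for Ubd, 9.70 ± 3.40 for Apol6, 7.85 ± 2.65 for Calhm6, 0.797 ± 0.0992 for Slc17a6 and 0.664 ± 0.649 for Fmod (SD, n = 3). In vehicle tumors it was 21 ± 5.62 for Apol9a, 15.1 ± 3.70 for Apol9b, 1.87 ± 0.559 for Ubd, 0.575 ± 0.0397 for Apol6, 0.598 ± 0.438 for Calhm6, 0.053 ± 0.0239 for Slc17a6 and 0.0275 ± 0.0243 for Fmod (SD, n = 3). Neighbours in this order whose tumors overlapped in both groups were Apol9a with Apol9b, Apol6 with Calhm6, and Slc17a6 with Fmod. Apol9b and Ubd overlapped in TP-18 tumors and were apart in vehicle tumors. Among all 23122 genes, Ubd stood at percentile 89.1 of mean FPKM in TP-18 tumors and 57.8 in vehicle tumors, while Apol9a stood at 93.0 and 87.0.

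**Figure D1:**
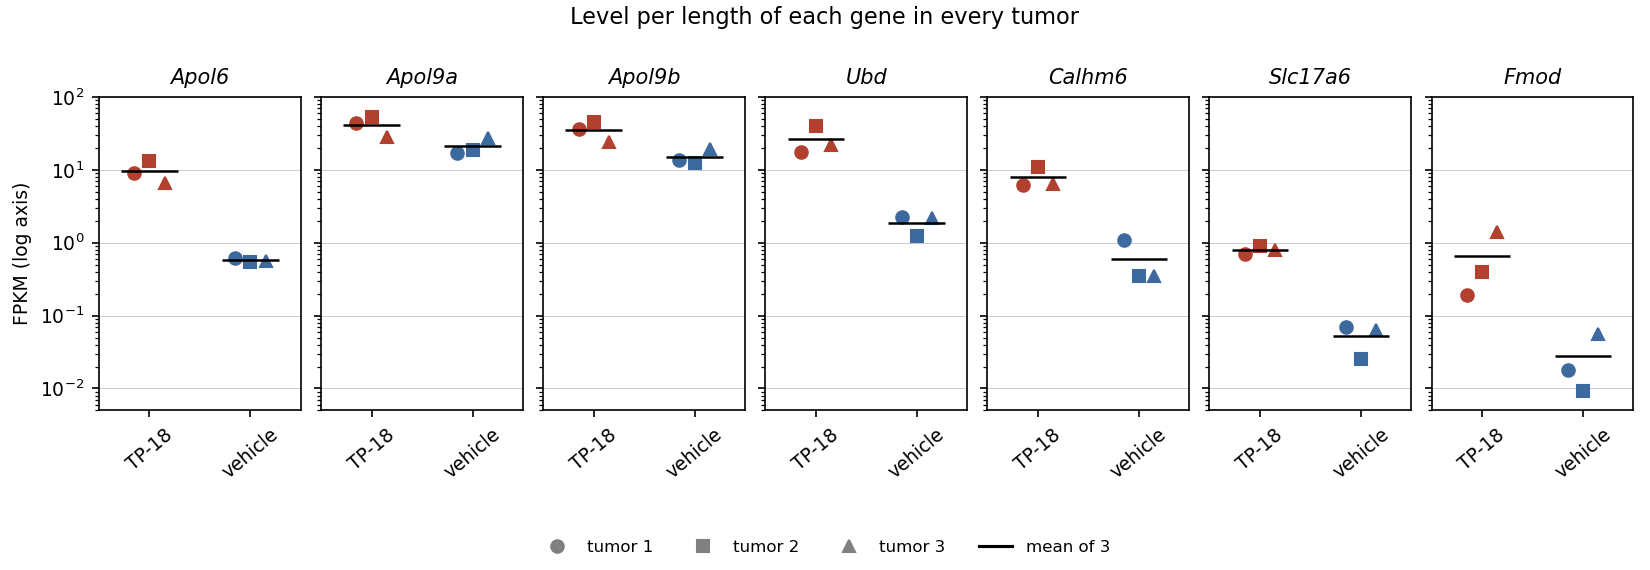
Each symbol is the FPKM of a gene in 1 tumor on a log axis shared by all 7 panels, with TP-18 tumors left of vehicle tumors and a bar at the mean of 3. Apol6, Ubd, Calhm6, Slc17a6 and Fmod show a gap between the groups, whereas Apol9a reaches down to 28.4 FPKM in TP-18 tumors and up to 27.4 FPKM in vehicle tumors.

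Apolipoprotein L proteins are intracellular or secreted lipid-binding proteins, and human APOL6 was described as a pro-apoptotic protein with a BH3-like region. Apol6 had 1142, 1666 and 854 counts in TP-18 tumors, against 77, 67 and 69 counts in vehicle tumors. Every TP-18 tumor lay above every vehicle tumor, TP-18 tumor 2 was the highest, and the vehicle tumors lay close together. TMM-scaled CPM averaged 32.7 ± 12.0 in TP-18 tumors and 2.13 ± 0.0725 in vehicle tumors (SD, n = 3 each), 15.3-fold higher with TP-18. The fitted log2 change was 3.94 ± 0.29 (SE), and the lowest TP-18 tumor was 9.99-fold above the highest vehicle tumor in CPM.

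Apol6 lies on the plus strand of chromosome 15 from 77045050 to 77057108 and overlaps Mb, the gene of the muscle oxygen carrier myoglobin, on the minus strand. Their exons share 64 bases, which is 1.42% of the 4498 exon bases of Apol6 and 4.29% of the 1492 of Mb in GENCODE M21. Mb had 27, 44 and 62 counts in TP-18 tumors, against 7, 17 and 5 in vehicle tumors, and its log2 change of 2.00 ± 0.55 missed the threshold (adjusted p = 0.0517). Mb counts came to 2.36% to 7.26% of the Apol6 counts in TP-18 tumors and to 7.25% to 25.4% in vehicle tumors. The sources used here do not say whether the library kit marks strand or whether counting used it, so reads in the shared bases cannot be told apart. The other tested neighbours, Rbfox2 (log2 change -0.02, adjusted p = 0.867) and 1110038F14Rik (0.21, adjusted p = 0.340), did not pass.

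Apol9a and Apol9b are mouse paralogs that interferons induce, and their products were described to limit a picornavirus in mouse cells. Apol9a had 3042, 3617 and 2009 counts in TP-18 tumors, against 1161, 1250 and 1855 in vehicle tumors. In TMM-scaled CPM the groups overlapped: TP-18 tumor 3, at 51.5 CPM, lay below vehicle tumor 3, at 57.9 CPM. In FPKM, which has no TMM scaling, they were just apart, at 28.4 in TP-18 tumor 3 and 27.4 in vehicle tumor 3. Apol9a averaged 77.4 ± 24.0 CPM in TP-18 tumors and 43.1 ± 13.1 CPM in vehicle tumors (SD, n = 3 each), with a log2 change of 0.85 ± 0.31 (SE).

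Apol9b had 3356, 4116 and 2295 counts in TP-18 tumors, against 1236, 1131 and 1756 in vehicle tumors. The groups did not overlap, but TP-18 tumor 3 was only 1.07-fold above vehicle tumor 3 in CPM. Apol9b averaged 87.2 ± 27.0 CPM in TP-18 tumors and 41.6 ± 11.5 CPM in vehicle tumors (SD, n = 3 each), with a log2 change of 1.07 ± 0.29 (SE).

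Apol9a lies on the minus strand of chromosome 15 from 77403789 to 77411080, and Apol9b on the plus strand from 77729047 to 77736382, a span that begins slightly before the start used for its promoter. The split of reads between the Apol9 genes is uncertain. Their transcripts Apol9a-201 and Apol9b-204 were identical at 1506 aligned bases, with 23 mismatches and 1 gap, or 98.4% identity. Windows of 50 bases that occur letter for letter in both made up 57.5% of Apol9a-201, and windows of 150 bases 28.1%. Apol9a took 47.5%, 46.8% and 46.7% of the summed Apol9 counts in TP-18 tumors, against 48.4%, 52.5% and 51.4% in vehicle tumors, so its share was lower in every TP-18 tumor. How reads that map to both genes were counted is not stated by the sources used here. The reference is of strain C57BL/6J, whereas the tumors are BALB/c, and how this affects the split was not tested.

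The rest of the apolipoprotein L family was set beside these genes, from a list that was drawn up with earlier results of these data known. Of 11 such genes with counts, 5 were tested, and 1 was higher and 0 lower by edgeR, against 7.09% and 5.26% of all tested genes. Their median log2 change was 0.26, against -0.01 over all tested genes. For lower genes the count was also 0 with DESeq2 and limma-voom, and 1 at an unadjusted p under 0.05 in edgeR. The higher gene was Apol10b, with 674, 853 and 676 counts in TP-18 tumors, against 235, 155 and 146 in vehicle tumors. Its groups were apart, at a log2 change of 1.88 ± 0.20 (SE, adjusted p = 0.00241), and it passed without each library in turn (highest adjusted p = 0.0189).

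Apol7a, 4679 bases from Apol9a, had a log2 change of 0.26 ± 0.12 (SE, adjusted p = 0.186). Apol8, 8727 bases beyond Apol9b, had 0.44 (adjusted p = 0.668), and Myh9, a non-muscle myosin heavy chain after it, -0.08 (adjusted p = 0.643). Apold1, an endothelial relative, had -0.66 ± 0.31 (adjusted p = 0.195) and Apol7d -1.19 ± 0.42 (adjusted p = 0.105). Among genes too low to test, Apol11a had 22, 25 and 9 counts in TP-18 tumors, against 6, 0 and 4 in vehicle tumors. Apol11b had 14, 10 and 9 counts in TP-18 tumors, against 2, 1 and 3 in vehicle tumors. Along the cluster, Apol7a, which was not called, thus lies between Apol6 and Apol9a.

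**Figure D2:**
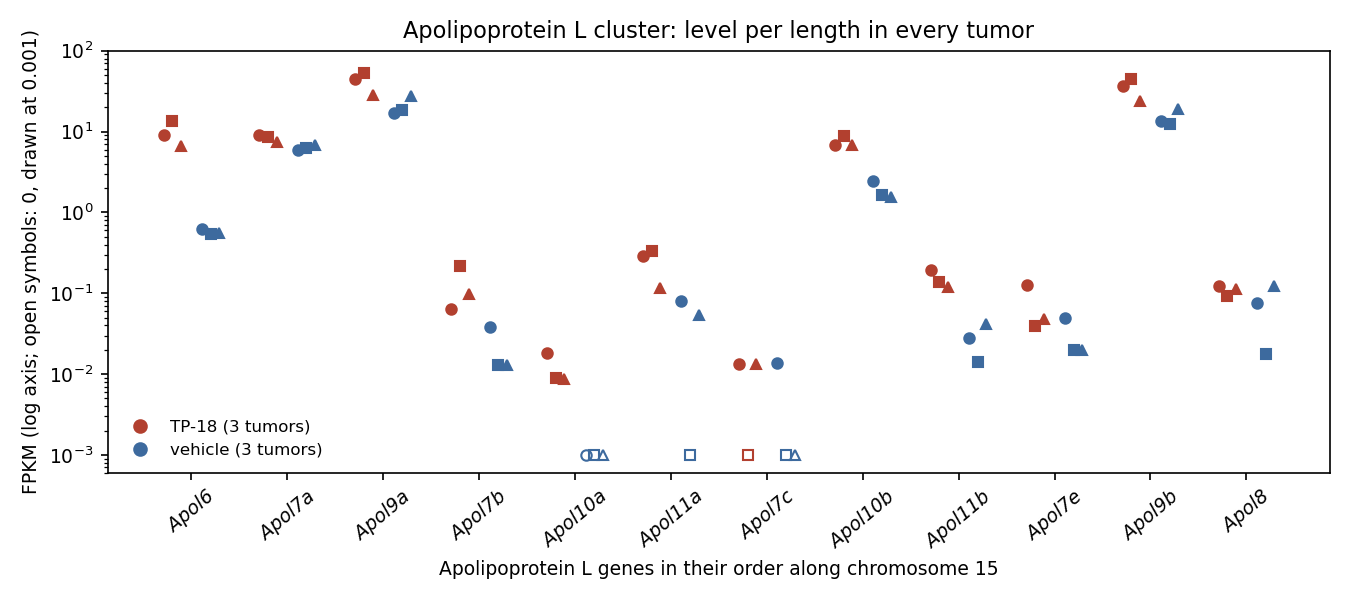
FPKM of the 12 apolipoprotein L genes of chromosome 15 (Apol7d lies on chromosome 1) in every tumor on a log axis, in their order along the chromosome and not to scale; open symbols are values of 0 drawn at 0.001. Apol6 and Apol10b show a gap between TP-18 (left) and vehicle tumors. Apol7a is apart by little, at 7.47 FPKM in TP-18 tumor 3 and 6.81 FPKM in vehicle tumor 3. Apol9a, Apol9b, Apol7b, Apol10a, Apol11a and Apol11b are also apart in FPKM, all too low to test except the Apol9 genes. The groups overlap for the other genes shown.

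Ubd encodes FAT10, a ubiquitin-like protein that marks other proteins for the proteasome. It had 588, 1341 and 747 counts in TP-18 tumors, against 73, 40 and 71 in vehicle tumors. The groups were apart, with TP-18 tumor 2 highest and vehicle tumor 2 lowest. Ubd averaged 23.9 ± 11.2 CPM in TP-18 tumors and 1.84 ± 0.537 CPM in vehicle tumors (SD, n = 3 each), 13.0-fold higher with TP-18. The log2 change was 3.69 ± 0.41 (SE), and the lowest TP-18 tumor stood 7.13-fold above the highest vehicle tumor.

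The other ubiquitin-like modifiers were set beside Ubd. Of 14 tested, 0 were higher and 2 lower by edgeR, against 7.09% and 5.26% of all tested genes, and their median log2 change was -0.17. For higher genes the count was also 0 with DESeq2, with limma-voom and at an unadjusted p under 0.05 in edgeR, but it was 1 without vehicle tumor 3, and 1 at an unadjusted p under 0.05 in DESeq2 and in limma-voom. Fau, whose product carries a ubiquitin-like part joined to a ribosomal protein, was lower (log2 change -0.63 ± 0.12, SE, adjusted p = 0.0174), as was Gabarapl1, an autophagy modifier (-0.57 ± 0.12, adjusted p = 0.0211). Each of these calls was lost without TP-18 tumor 3, where the adjusted p was 0.0789 for Fau and 0.0876 for Gabarapl1, and without vehicle tumor 2. Fau was also lost without TP-18 tumor 2, and Gabarapl1 without TP-18 tumor 1. Isg15, the interferon-induced modifier, had 1953, 2565 and 1779 counts in TP-18 tumors, against 1213, 879 and 1594 in vehicle tumors, and its log2 change of 0.60 ± 0.26 did not pass (adjusted p = 0.182).

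The genes that act with FAT10 were set beside Ubd. Of 9 tested partners 0 were higher and 1 was lower by edgeR, against 7.09% and 5.26% of all tested genes, with a median log2 change of -0.09. For lower partners DESeq2 called 3, as did an adjusted p under 0.10 in edgeR. In 5 of the 9 every TP-18 tumor lay below every vehicle tumor, against 17.8% of all tested genes. For higher partners the count was also 0 with DESeq2, with limma-voom and at an unadjusted p under 0.05. Uba6, the activating enzyme of FAT10, had a log2 change of 0.03 (adjusted p = 0.920). Ube2z, which conjugates it, had -0.01 (adjusted p = 0.925), and Nub1, which speeds its breakdown, had 0.12 (adjusted p = 0.475). The lower gene was Sqstm1, an autophagy receptor to which FAT10 can be attached, at 564 CPM in TP-18 tumors and 1000 CPM in vehicle tumors (log2 change -0.83 ± 0.14, adjusted p = 0.0107; 0.0530 without TP-18 tumor 3). Psmd4, a proteasome subunit that binds FAT10, had -0.38 ± 0.12 (adjusted p = 0.0708) and Aipl1, a chaperone that binds it, -0.93 ± 0.31 (adjusted p = 0.0899).

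Ubd lies on chromosome 17 from 37193892 to 37196101, among olfactory receptor genes and next to the major histocompatibility region. Its neighbour H2-M3, a class Ib histocompatibility gene 74133 bases away, was higher in TP-18 tumors by a log2 change of 0.36 ± 0.09 (SE, adjusted p = 0.0391), a call lost when any library except vehicle tumor 3 was left out (adjusted p up to 0.114). Gabbr1, a GABA receptor gene on the other side, was not called (-0.10, adjusted p = 0.429).

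Calhm6 belongs to the calcium homeostasis modulators, which form large-pore channels, and was described on mouse dendritic cells and macrophages in their contact with NK cells. It had 241, 417 and 251 counts in TP-18 tumors, against 42, 13 and 13 in vehicle tumors. The groups were apart, and vehicle tumor 1 stood above the other vehicle tumors. Calhm6 averaged 8.11 ± 2.86 CPM in TP-18 tumors and 0.667 ± 0.458 CPM in vehicle tumors (SD, n = 3 each). The log2 change was 3.59 ± 0.49 (SE) with all libraries and 4.34 without vehicle tumor 1.

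Its family and neighbours varied. Calhm2, a channel gene expressed in brain microglia, had 73, 110 and 161 counts in TP-18 tumors, against 43, 28 and 31 in vehicle tumors. Its groups were apart and it passed at a log2 change of 1.57 ± 0.35 (SE, adjusted p = 0.0284), but the call was lost without TP-18 tumor 2, TP-18 tumor 3, vehicle tumor 2 or vehicle tumor 3 (adjusted p up to 0.112). Calhm5, 29548 bases from Calhm6 on chromosome 10, had a log2 change of -0.05 (adjusted p = 0.941), and Calhm4 was too low to test at 5, 3 and 34 counts in TP-18 tumors, against 14, 3 and 0 in vehicle tumors. Calhm6 itself lies from 34126067 to 34127972. On its other side Dse, an enzyme of dermatan sulfate synthesis, was higher by 0.35 ± 0.09 (log2, SE, adjusted p = 0.0403), a call lost when any library except vehicle tumor 3 was left out (adjusted p up to 0.134). Tspyl1 was not called (0.05, adjusted p = 0.672).

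Markers of T cells, NK cells and macrophages had higher sums in TP-18 tumors, as had Apol6, Ubd, Calhm6 and Slc17a6. Over all tested genes 7.09% were called higher. T cell markers summed to 93.8 to 103 CPM in TP-18 tumors, against 17.3 to 34.4 CPM in vehicle tumors, and 11 of 11 tested were higher. NK cell markers summed to 59.7 to 67.5 CPM in TP-18 tumors, against 13.5 to 17.3 CPM in vehicle tumors, with 7 of 7 higher. Macrophage and monocyte markers summed to 2230 to 2570 CPM in TP-18 tumors, against 1180 to 1710 CPM in vehicle tumors, with 5 of 13 higher. Dendritic cell markers summed to 238 to 249 CPM in TP-18 tumors, against 189 to 238 CPM in vehicle tumors, with 6 of 11 higher; most of that sum was Fscn1, at 162 CPM in TP-18 tumors and 179 CPM in vehicle tumors, which was not called (adjusted p = 0.333). Neutrophil markers summed to 68.3 to 142 CPM in TP-18 tumors, against 46.2 to 346 CPM in vehicle tumors, and of 6 tested 0 were higher by edgeR, by DESeq2, by limma-voom or at an unadjusted p under 0.05. Without TP-18 tumor 3 the higher markers were 5 of T cells, 3 of macrophages and 3 of dendritic cells. T cell markers also fell to 6 calls without TP-18 tumor 1, 5 without TP-18 tumor 2 and 6 without vehicle tumor 2, and macrophage markers to 3 without TP-18 tumor 1 or 2. No marker of the T cell, NK cell, macrophage and dendritic cell lists was at 0 in all tumors of a group other than Klra8. This NK cell marker had 0, 0 and 1 counts in TP-18 tumors and 0 in every vehicle tumor. Their part in the differences of these 4 genes was not tested.

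Slc17a6 encodes VGLUT2, which loads glutamate into synaptic vesicles. It had 112, 143 and 129 counts in TP-18 tumors, against 11, 4 and 10 in vehicle tumors. The groups were apart, and the TP-18 tumors lay closer together than for any other of the 7 genes, with the highest 1.30-fold above the lowest in CPM. Slc17a6 averaged 3.41 ± 0.46 CPM in TP-18 tumors and 0.249 ± 0.110 CPM in vehicle tumors (SD, n = 3 each). The log2 change was 3.75 ± 0.40 (SE), resting on 25 counts in all 3 vehicle tumors together.

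Of 14 neuronal markers, 8 were too low to test. Stmn2 had 7, 16 and 12 counts in TP-18 tumors, against 3, 1 and 0 in vehicle tumors, and Map2 had 9, 4 and 15, against 1, 1 and 3. Prph had 6, 4 and 8 counts in TP-18 tumors, against 3, 3 and 1 in vehicle tumors. The groups were thus apart for these 3 genes in the direction of Slc17a6. They were so for 18.0% of all tested genes, a set that leaves out genes this low. The groups overlapped for the other 5. Rbfox3 had 1, 4 and 4 counts in TP-18 tumors, against 0, 1 and 0 in vehicle tumors, and Snap25 had 1, 1 and 6, against 3, 2 and 2. Elavl3 had 1, 5 and 0 counts in TP-18 tumors, against 1, 3 and 1 in vehicle tumors, and Elavl4 was at 0 in every TP-18 tumor. The neuron list as a whole summed to 87.0 to 97.3 CPM in TP-18 tumors, against 130 to 161 CPM in vehicle tumors. Of 6 tested markers 3 were lower, against 5.26% of all tested genes, among them Nefm (log2 change -0.89, adjusted p = 0.00685). Only 1 was lower without TP-18 tumor 1, 2 or 3, or without vehicle tumor 2, and Nefm passed without each library in turn. Most of that sum was Nefl, at 38.2 CPM in TP-18 tumors and 66.6 CPM in vehicle tumors, and Nefm, at 19.7 CPM in TP-18 tumors and 36.4 CPM in vehicle tumors. The part of neuronal cells in the difference of Slc17a6 was not tested.

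Other vesicular transporters and glutamate genes were set beside Slc17a6. Of the SLC17 family, Slc17a5, a lysosomal sialic acid carrier, had a log2 change of 0.12 ± 0.13 (adjusted p = 0.564) and Slc17a9, the vesicular nucleotide carrier, 0.37 ± 0.30 (adjusted p = 0.457). The other vesicular glutamate transporters were too low to test: Slc17a7 had 6, 9 and 11 counts in TP-18 tumors, against 2, 7 and 7 in vehicle tumors, and Slc17a8 had 2, 7 and 0, against 3, 1 and 1. Of 12 tested glutamate-handling genes 2 were higher and 0 lower by edgeR, against 7.09% and 5.26% of all tested genes, with a median log2 change of -0.04. DESeq2 called 4 higher. For lower genes the count was also 0 with DESeq2, with limma-voom and at an unadjusted p under 0.05.

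The higher glutamate genes were Slc38a1, a glutamine carrier (log2 change 1.12 ± 0.23, adjusted p = 0.0248), and Slc1a2, a glutamate uptake carrier (1.65 ± 0.35, adjusted p = 0.0348). Each call was lost when single libraries were left out, with adjusted p up to 0.0967 for Slc38a1 without vehicle tumor 2 and up to 0.105 for Slc1a2 without TP-18 tumor 3. Without TP-18 tumor 1 each was lost too. Slc38a1 was lost as well without TP-18 tumor 2 or 3, and Slc1a2 without vehicle tumor 1 or 2. Slc1a3, a related uptake carrier, had the widest change at 2.59 ± 0.80 and missed the threshold (adjusted p = 0.0708).

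Slc17a6 lies on chromosome 7 from 51621830 to 51671126. Ano5, a muscle membrane protein gene 23123 bases before it, was too low to test, at 19 counts in all TP-18 tumors and 2 in all vehicle tumors. On the other side Fancf, a DNA repair gene (log2 change 0.03, adjusted p = 0.902), and Gas2 (-0.24, adjusted p = 0.465) were not called.

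Fmod encodes fibromodulin, a small leucine-rich proteoglycan that binds collagen and guides how fibrils form and are crosslinked. It had 21, 44 and 160 counts in TP-18 tumors, against 2, 1 and 6 in vehicle tumors. The groups were apart, but TP-18 tumor 3 alone was 7.27-fold above TP-18 tumor 1 in CPM, the widest spread of the 7 genes. Fmod averaged 1.96 ± 1.89 CPM in TP-18 tumors and 0.0916 ± 0.0840 CPM in vehicle tumors (SD, n = 3 each). The log2 change was 4.38 ± 0.96 (SE), resting on 9 counts in the vehicle tumors together; it was 3.23 without TP-18 tumor 3 and 5.37 without vehicle tumor 3.

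The small leucine-rich proteoglycans as a family gave no call. Of 11 tested relatives 0 were higher and 0 lower by edgeR, against 7.09% and 5.26% of all tested genes. At an unadjusted p under 0.05 the test gave 4 higher and 1 lower, DESeq2 called 3 higher and 1 lower, and limma-voom called 1 higher. Their median log2 change was 0.61. Podn, podocan, had 53, 115 and 262 counts in TP-18 tumors, against 27, 34 and 40 in vehicle tumors (log2 change 1.88 ± 0.55, adjusted p = 0.0633), so TP-18 tumor 3 was highest, as for Fmod. Omd, osteomodulin of mineralized tissue, had 1.44 ± 0.35 (adjusted p = 0.0506) and Ecm2 1.11 ± 0.37 (adjusted p = 0.0876). Dcn, decorin, another regulator of collagen fibrils, had -0.60 ± 0.16 (adjusted p = 0.0507). Over the TP-18 tumors Podn shared the order of Fmod, at 1.42, 3.15 and 6.72 CPM, whereas Omd, Ecm2 and Dcn did not. Omd stood at 76.0, 30.6 and 50.1 CPM in TP-18 tumors 1, 2 and 3. In CPM Dcn too was highest in TP-18 tumor 1, and Ecm2 in TP-18 tumor 2.

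Prelp, a proteoglycan gene 107152 bases before Fmod on chromosome 1, had a log2 change of 0.86 ± 0.31 (adjusted p = 0.127), with TP-18 tumor 1 highest. Btg2, an antiproliferative gene on the other side of Fmod, which itself lies from 134037254 to 134048280, had 0.14 (adjusted p = 0.737). Among 15 tested genes of fibrillar collagen and crosslinking, 1 was higher and 0 lower by edgeR, against 7.09% and 5.26% of all tested genes; for lower genes DESeq2 and limma-voom called 0 as well, and 1 had an unadjusted p under 0.05. The higher gene was Loxl3, a lysyl oxidase (log2 change 0.67 ± 0.15, adjusted p = 0.0263). Loxl3 was lost without TP-18 tumor 1, 2 or 3, or without vehicle tumor 2 (adjusted p up to 0.104). The list had 2 higher genes without vehicle tumor 1 or 3, and its median log2 change was 0.01.

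Fmod was also set beside markers of other tissue. Skeletal muscle markers summed to 134, 73.8 and 147 CPM in TP-18 tumors, against 29.4, 39.7 and 12.9 CPM in vehicle tumors. Of 15 tested 8 were higher, against 7.09% of all tested genes, or 3 without TP-18 tumor 1, TP-18 tumor 3 or vehicle tumor 2. Keratinocyte markers summed to 12.9, 1.72 and 51.0 CPM in TP-18 tumors, against 1.71, 3.64 and 2.34 CPM in vehicle tumors, so TP-18 tumor 3 was highest on both lists, as for Fmod. TP-18 tumor 2, which lay between the others for Fmod, was the lowest TP-18 tumor on both lists, and vehicle tumor 3, the highest vehicle tumor for Fmod, had the lowest muscle sum. Tendon and perimysium markers summed to 7.20, 10.6 and 18.9 CPM in TP-18 tumors, against 7.66, 16.2 and 18.7 CPM in vehicle tumors. Tnmd, which defines tendon cells, had 0, 1 and 9 counts in TP-18 tumors, against 0, 1 and 1 in vehicle tumors, and Scx had 0, 4 and 5, against 1, 0 and 1; the groups overlapped for each. Of the same list, Col11a1, a collagen of fibril cores, had 7, 28 and 68 counts in TP-18 tumors, against 1, 1 and 0 in vehicle tumors, and Comp, a cartilage and tendon matrix protein, had 9, 9 and 12, against 1, 1 and 4. For Col11a1 and Comp the groups were apart with TP-18 tumor 3 highest, as for Fmod. Every TP-18 tumor lay above every vehicle tumor for 18.0% of all tested genes, a set that leaves out genes this low. The groups overlapped for all other genes of the list. Its sum was mostly Thbs4 and Fibin, the only genes of the list with enough counts to test. Their log2 changes were -0.35 ± 0.61 and -0.43 ± 0.86 (SE), and neither was called (adjusted p = 0.739 and 0.781). Fibroblast markers summed to 2440 to 4080 CPM in TP-18 tumors, against 2000 to 6020 CPM in vehicle tumors, and overlapped. The part of these tissues in the values of Fmod was not tested.

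Across the 7 genes, 5 were among the genes called higher and 6 had every TP-18 tumor above every vehicle tumor. Over all tested genes these shares were 7.09% and 18.0%. Since the genes were chosen on this contrast, nothing is read from these counts. Apol9a and Apol9b were not called, and Apol9a was the gene whose groups overlapped.

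Most of the 7 genes shared the highest TP-18 tumor and the lowest vehicle tumor, but not the full order. TP-18 tumor 2 was the highest TP-18 tumor for 6 of the 7, the exception being Fmod. The lowest was TP-18 tumor 3 for 4 genes and TP-18 tumor 1 for 3. Vehicle tumor 2 was the lowest vehicle tumor for 6, the exception being Apol9a. Some of these were near ties with the next vehicle tumor, at 67 and 69 counts for Apol6 and 13 and 13 for Calhm6. The highest was vehicle tumor 3 for 4 genes and vehicle tumor 1 for 3. Over all tested genes TP-18 tumor 2 was highest among the TP-18 tumors for 38.3%, and vehicle tumor 2 lowest among the vehicle tumors for 28.9%. A list of 18 genes, written with earlier results known, held Ifng, the gene of interferon gamma, and genes that interferon gamma induces. In it TP-18 tumor 2 was highest for all 18 and vehicle tumor 2 lowest for 12. All 18 were also called higher in TP-18 tumors, against 7.09% of all tested genes, at a median log2 change of 1.92. Leaving out single libraries gave 16 (without vehicle tumor 2) to 18 calls. Cxcl10, which attracts T cells, had 2.01 ± 0.13 (SE, adjusted p = 0.00082). Iigp1, a guanosine triphosphatase against intracellular parasites, had 2.55 ± 0.17 (adjusted p = 0.00118).

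To see which genes ran most like each of the 7, log2 CPM (prior count 0.5) was centred on each gene's own mean, and the root mean square difference over the 6 tumors was taken against 11881 or 11882 protein-coding genes. For Apol6 the nearest were Gm12250 at 0.318, Serpina3f at 0.328 and Ubd at 0.358, with a median of 1.97 over all candidates. Ubd was nearest to Serpina3f at 0.146, Cd6 at 0.220 and Gm12185 at 0.340. Serpina3f, a serine protease inhibitor, averaged 14.3 ± 6.48 CPM in TP-18 tumors and 1.22 ± 0.337 CPM in vehicle tumors (SD, n = 3 each), and Cd6 is a T cell surface receptor.

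Calhm6 was nearest to Ciita, the activator of class II histocompatibility genes, at 0.355, Serpina3g at 0.435 and Cxcl9, a T cell chemokine, at 0.457. Slc17a6 was nearest to Ubd at 0.312, Gm12185 at 0.322 and Cd226, an activating receptor of T and NK cells, at 0.332. These 4 genes, Apol6, Ubd, Calhm6 and Slc17a6, lay within 0.518 of each other. Their log2 changes were of like size too, from 3.59 for Calhm6 to 3.94 for Apol6.

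The Apol9 genes, whose log2 changes were smaller (0.85 and 1.07), had other nearest genes. Apol9a was nearest to Oas2, an antiviral RNA sensor, at 0.0827, Ifit1 at 0.0975 and Xaf1 at 0.118, against a median of 0.600. Apol9b was nearest to Cmpk2 at 0.0842, Irf7, a regulator of type I interferon, at 0.0886 and Xaf1 at 0.116. Oas2 averaged 43.7 ± 13.0 CPM in TP-18 tumors and 23.8 ± 8.76 CPM in vehicle tumors (SD, n = 3 each). Apol9a and Apol9b differed by 0.130 from each other, and Apol6 by 1.54 from Apol9a and 1.42 from Apol9b. Fmod had no near profile among the candidates, which left out genes as low as Fmod. Pdgfrl stood at 0.857, Cd226 at 0.903 and Mfap4, a microfibril protein, at 0.935. The nearest to Fmod among the 7 was Slc17a6 at 0.927, which was not a candidate. Because the difference between the groups sets most of each profile, nearness largely restates the size of the log2 change. It is a description and carries no test.

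**Figure D3:**
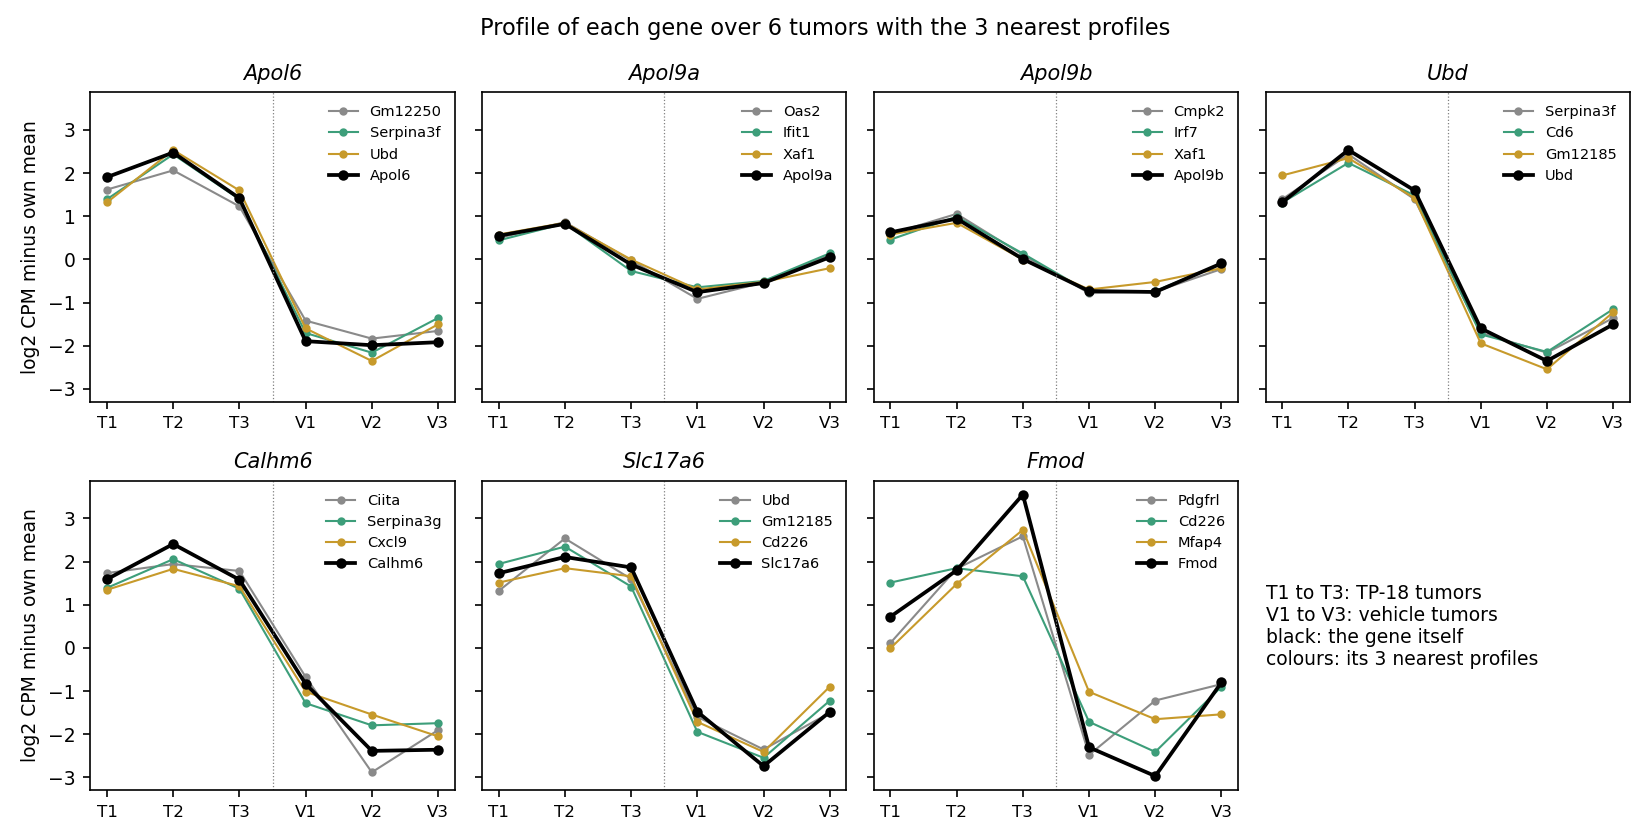
Log2 CPM minus the gene's own mean in each tumor, TP-18 tumors (T1 to T3) left of vehicle tumors (V1 to V3), with each gene in black and its 3 nearest profiles in colour; lines join tumors only to guide the eye. Apol9a and Apol9b vary least, and Fmod stands above its neighbours in T3.

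**Figure D4:**
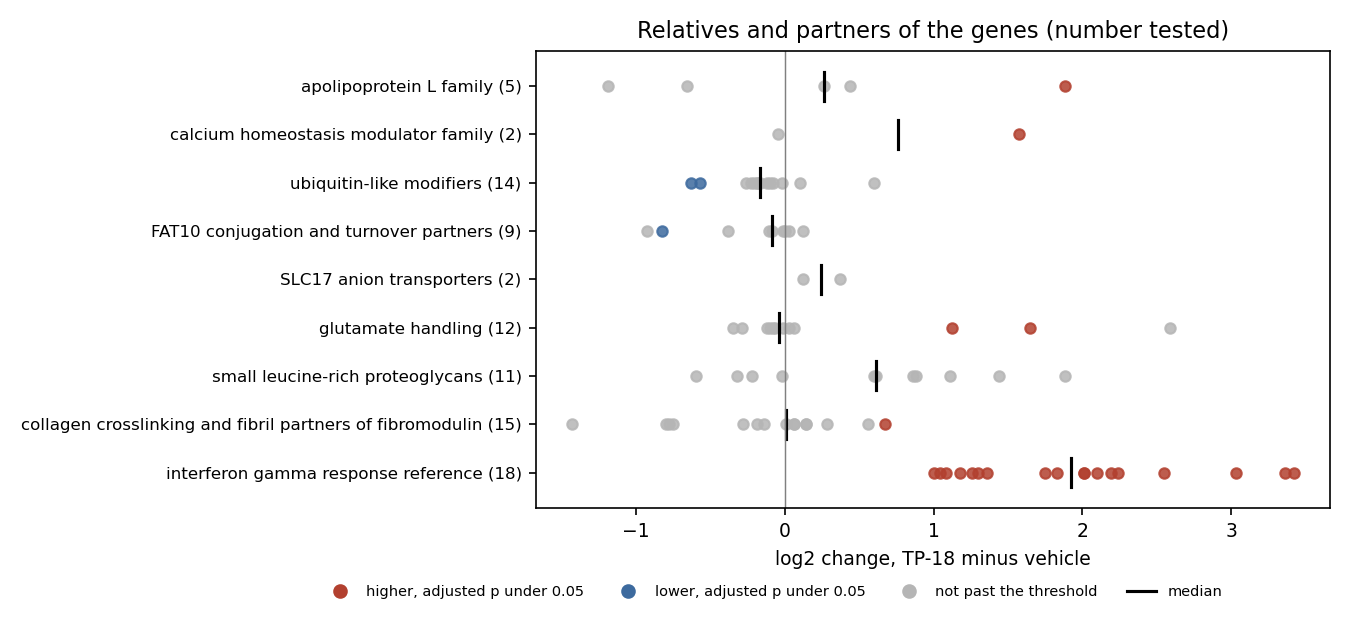
Log2 change, TP-18 minus vehicle, of the tested genes in each family or partner list without the 7 genes themselves; colour marks genes past the adjusted p of 0.05 and the black tick is the list's median. All 18 interferon gamma genes lie right of 0, while the FAT10 partners range from Aipl1 at -0.93 to Nub1 at 0.12.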

How the data were processed

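Total RNA of 6 tumors was sequenced. The deposited counts are whole numbers per gene; the submitters' processing notes name fastp, HISAT2, HTSeq and GRCm38, while their versions, the strand setting and the treatment of multi-mapping reads were not stated by any source used here. Deposited FPKM values were made by the authors from each count, a whole-number gene length and the library total, which was checked in 15884 of 15884 genes (tolerance 0.001 bases). Groups were taken from the labels. Genes passing filterByExpr (minimum count 10, total 15) were fitted in R 4.3.3 with edgeR 4.0.16: TMM scaling, the group alone, robust quasi-likelihood F test, two-sided, prior count 0.125, Benjamini-Hochberg adjusted p under 0.05 over 14189 genes. Standard errors came from the F statistic. P-values cover at most the spread between these samples, which may be technical. Alternatives were RLE and upper-quartile scaling, other filters, DESeq2 1.42.0, limma 3.58.1 (voom, and its trend test on log2 FPKM with pseudocounts 1 and 0.1), a replicate block, an adjusted p under 0.10 and leaving out each library. In simulated data of this layout (14036 genes), 63 of 100 genes changed 2-fold and 88 of 100 changed 4-fold were called, with 19 false calls. The 7 genes and all gene lists were chosen with earlier results of these data known. Besides the 7, named genes were up to 4 per family list by smallest p, the 3 nearest profiles, and the nearest 2 genes on each side; Uba6, Ube2z, Nub1, Isg15, Calhm4, Slc17a7, Slc17a8, Apol11a, Apol11b and single markers were named after their values were seen. Promoters are from RefSeq, exons and transcripts from GENCODE M21, both GRCm38.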

Additional observations from a re-analysis of the deposited data

How the results depend on the processing

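All 7 genes had a positive log2 change under each of the alternatives run, except that Fmod could not be fitted under the filter of 1 CPM in 3 libraries. For Apol6, Ubd, Calhm6, Slc17a6 and Fmod the lowest values came from limma on log2(FPKM + 1), at 2.72, 3.20, 2.46, 0.77 and 0.63. That pseudocount exceeds most vehicle values of these genes, but not those of Ubd, at 1.23 to 2.22 FPKM. The number of genes called higher (1006) was 547 with the replicate number as a block and 1609 at an adjusted p under 0.10, and leaving out single libraries gave 388 (without TP-18 tumor 3) to 1216 (without vehicle tumor 1). It was also 591, 508 and 411 without TP-18 tumor 1, TP-18 tumor 2 and vehicle tumor 2. The number called lower (747) was 231 with the block, 1413 at 0.10, 1235 with DESeq2, 213 and 228 with limma on FPKM at pseudocounts 1 and 0.1, and 95 without its filter, and single libraries gave 111 (without TP-18 tumor 3) to 1023 (without vehicle tumor 1); the cause was not tested. The median log2 change of all genes was 0.13 on log2(FPKM + 0.1). Of relatives and partners, 23 were higher, and 17 to 24 without single libraries; 3 were lower, against 5 with no filter on low counts, 6 with DESeq2, 6 at 0.10, 0 with limma on FPKM without a filter (6 at an unadjusted p under 0.05), and 0 (without TP-18 tumor 3, 9 unadjusted) to 4 without single libraries. Tumors of equal number share only that number: their deviations correlated at 0.23, -0.0827 and -0.0326. Fmod at 9 vehicle counts and Slc17a6 at 25 are limited by depth.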
